A study of Mus musculus with 3 samples.

Results

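The genes described here are 10 genes that bear on whether transplanted myoblasts are recognised by immune cells, out of 35562 genes measured. They were chosen by name, and every one was found. They comprise the class I heavy chains H2-K1, H2-D1 and H2-Q4, the light chain B2m, the peptide transporter subunits Tap1 and Tap2, the loading factor Tapbp, the class I transactivator Nlrc5, and the ligands Cd274 (PD-L1) and Cd47. RNA-seq was performed on 3 myoblast lines, numbered 66, 67 and 72, of genotype Dmdmdx; Pax7-nGFP, after CRISPR/Cas9 editing meant to correct the mdx mutation. Dmdmdx is a mutant dystrophin allele, and Pax7-nGFP is a nuclear reporter of the satellite cell gene Pax7, by which the cells were sorted. The lines were grown from satellite cells of intraspecies mouse chimeras, made from edited iPSCs and host blastocysts with the alleles Pax7-Cre/ERT2 and Rosa26-lsl-DTA, in which tamoxifen ablates the host's own Pax7-expressing cells. The study describes the dystrophin edit for 1 iPSC clone, and the labels do not give the age, the tamoxifen treatment or the chimera behind each line. The lines therefore form 1 group with n = 3 and no control group, so what follows describes levels and the spread between lines, with no test between conditions.

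MHC class I molecules display peptides from inside the cell to CD8+ T cells. The proteasome cuts the peptides, the TAP transporter, made of TAP1 and TAP2, moves them into the endoplasmic reticulum, and tapasin (Tapbp) holds the transporter and an empty heavy chain with its β2-microglobulin (B2m) together while a peptide is loaded. NLRC5 acts on class I promoters together with factors bound to their X and Y boxes, and interferons raise many of these genes through interferon response elements. PD-L1, the product of Cd274, restrains T cells through PD-1, and CD47 restrains phagocytes through SIRPα.

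The promoters of the heavy chains and of B2m are shown first because NLRC5 and NF-κB act on these elements. RefSeq promoter windows on the GRCm38.p6 build, reaching from 250 bases before to 50 bases after a gene's start, were found for 8 of the 10 genes; Tap2 and Nlrc5 had no entry. The first set is 30 bases that begin at the enhancer A region of each heavy chain, with the NF-κB motif GGGGATTCC in capitals where it is present. The sequences lie at chr17:34000429-34000458 on the minus strand for H2-K1, and on the plus strand at chr17:35262923-35262952 for H2-D1 and chr17:35379443-35379472 for H2-Q4. They begin 111, 171 and 174 bases before the RefSeq start; for H2-D1 they lie inside the gene as GENCODE annotates it, whose start is further upstream.
H2-K1: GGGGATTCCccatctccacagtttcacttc
H2-D1: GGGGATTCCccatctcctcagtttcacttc
H2-Q4: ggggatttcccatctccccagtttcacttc
Counted from 1 at the 5′ end, H2-K1 and H2-D1 were identical at 29 of 30 bases and differed by A18T, while H2-Q4 differed from H2-K1 by C8T and A18C, of which the first lies in the motif. On either strand GGGGATTCC was present in 82 of 32851 promoter windows (0.25%), and H2-K1 and H2-D1 were the 2 of the 8 genes that held it.

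The second set runs from the X2 box core TGACG to the Y box, which reads ATTGG here and CCAAT on the other strand, with both in capitals where present. H2-K1 (chr17:34000359-34000388, minus strand), H2-D1 (chr17:35262993-35263022, plus), H2-Q4 (chr17:35379513-35379542, plus) and B2m (chr2:122147609-122147638, plus) begin 41, 101, 104 and 78 bases before the RefSeq start.
H2-K1: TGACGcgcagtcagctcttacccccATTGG
H2-D1: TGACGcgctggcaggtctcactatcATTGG
H2-Q4: tgacttactggcagttctcacccccATTGG
B2m: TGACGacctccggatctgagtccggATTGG
The 3 heavy chains were identical to each other at 23 of 30 bases in each pairing, and B2m was identical to them at between 12 and 14 bases. In H2-Q4 this core was altered, by G5T relative to H2-K1. TGACG followed after 20 bases by ATTGG was found in 31 of the 32851 windows (0.0944%), a spacing that was searched after these promoters had been seen. The letters were common when taken singly, since TGACG was in 20.8% and CCAAT in 37.4% of windows, and each was in 6 of the 8 genes.

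One form of the interferon response element, GAAA repeated after 2 bases of any kind and present in 3.44% of all windows, was found in B2m alone among the 8 genes. It opens the 30 bases at chr2:122147548-122147577 on the plus strand, beginning 139 bases before the start, with the motif in capitals.
B2m: GAAACTGAAAatgggaaagtccctttgtaa
The STAT motif TTCNNNGAA, in 8.3% of windows, was in none of the 8. Other forms of these elements were not searched. The enhancer A stretches printed above for H2-K1, H2-D1 and H2-Q4 share an end that holds GAAA on the other strand. It lacks the repeat after 2 bases, so the form searched here cannot match it. Whether the heavy chains hold another form of the interferon response element was therefore not tested. All motifs were searched on both strands, and a match describes letters only.

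Before the levels were read, the cells were checked against marker genes. All 7 myoblast markers lay above 10 TPM in every line, from Myf5 (109 ± 10.9 TPM, SD, n = 3) to Myod1 (690 ± 107 TPM, SD, n = 3), both regulators of muscle fate. TPM is the deposited level of a transcript scaled by its length and by the library's total, summed here over the transcripts of a gene. Among 12 immune cell markers, Adgre1, Nkg7 and Tyrobp had no count in any line, and Ptprc, the pan-leukocyte CD45 gene, had 1, 3 and 7 estimated counts in lines 66, 67 and 72. The 12 markers summed to between 3.53 and 5.30 TPM, most of it from the lysosomal gene Cd68. The 6 endothelial markers summed to between 1.18 and 2.13 TPM, with none at 1 TPM in every line. Of 6 fibroblast markers, Lum and Dpt had no count, and the sum lay between 3.80 and 3.89 TPM, most of it from Ly6a (2.97, 3.31 and 3.26 TPM). Pdgfra and Col1a1 were detected in every line, at means of 0.406 and 0.202 TPM. The libraries held between 66972426 and 73274315 estimated counts, at which no counts for a gene still allows up to 3. These are bulk samples, in which fewer cells of a type and less RNA per cell cannot be told apart.

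B2m, the light chain shared by class I molecules, was by far the highest of the 10 genes. It measured 280, 268 and 302 TPM in lines 66, 67 and 72 (283 ± 17.02 TPM, SD, n = 3), above 98% of the 25510 genes with a TPM over 0 in any line (the detected genes). Its level was close in the 3 lines, with the highest 1.13 times the lowest. B2m lies at chr2:122147686-122153083 on the plus strand; this and the gene coordinates below are GRCm38 positions from GENCODE release M21.

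H2-K1 and H2-D1, the classical heavy chains that present peptides to CD8+ T cells, were both expressed and were both highest in line 66. H2-K1 (chr17:33996017-34000347, minus strand) measured 37.4, 15.6 and 16.1 TPM in lines 66, 67 and 72, from 1797, 653 and 636 estimated counts. Line 66 thus stood at 2.40 times the lowest line, while the other two differed little. H2-D1 (chr17:35262730-35267499, plus strand) measured 23.6, 15.3 and 12.8 TPM from 2250, 1355 and 1147 counts. The highest line was 1.85 times the lowest, with the lines in the order 66, 67, 72. The means were 23.01 ± 12.4 TPM for H2-K1 and 17.2 ± 5.64 TPM for H2-D1 (SD, n = 3), above 77.4% and 73.3% of detected genes.

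H2-Q4 (chr17:35379617-35385290, plus strand), a heavy chain gene of the Q region, was much lower. Its level was 1.75, 1.07 and 0.950 TPM in lines 66, 67 and 72, from 147, 82.5 and 73.4 counts. H2-Q4 lay below 10 TPM in each line and followed the same order of lines as H2-D1. Set against the sum of the 3 heavy chains, which was 62.7, 32.0 and 29.8 TPM, the B2m level was 4.47, 8.37 and 10.1 times as high in lines 66, 67 and 72. On the log2(TPM + 1) scale the difference was 2.82 ± 0.60 (SD, n = 3), and per library total, without regard to length, it was 1.39. B2m was the higher in 3 of 3 lines (exact sign-flip test, two-sided, p = 0.25), and 0.25 is the smallest p that 3 lines allow.

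The peptide transporter subunits lay at similar summed levels, though not over protein-coding transcripts alone, where Tap1 measured 7.49, 5.77 and 7.71 TPM and Tap2 2.43, 2.21 and 2.68 TPM. Tap1 (chr17:34187553-34197225, plus strand) measured 13.2, 10.03 and 11.9 TPM in lines 66, 67 and 72 (11.7 ± 1.59 TPM, SD, n = 3). Tap2 (chr17:34203527-34216321, plus strand) measured 10.98, 7.83 and 8.51 TPM (9.10 ± 1.66 TPM, SD, n = 3). By summed TPM both were highest in line 66 and lowest in line 67, by ratios of 1.31 for Tap1 and 1.402 for Tap2, whereas over protein-coding transcripts both were highest in line 72. Tap1 exceeded Tap2 in each line, by 1.202, 1.28 and 1.397 times in TPM (log2 difference 0.34 ± 0.10, n = 3, exact p = 0.25). Tapbp (chr17:33915899-33929292, plus strand), which encodes tapasin, measured 5.93, 6.57 and 8.14 TPM (6.88 ± 1.14 TPM, SD, n = 3). By TPM it was lowest in line 66 and highest in line 72, while per library total it was lowest in line 67.

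Nlrc5 (chr8:94434356-94527272, plus strand), the transactivator of class I genes, was expressed at a low level. It measured 0.795, 0.644 and 0.544 TPM in lines 66, 67 and 72, from 150, 54 and 70 estimated counts. The exact Poisson 95% intervals of those counts, which cover counting error only, ran from 127 to 176 in line 66, from 40.6 to 70.5 in line 67 and from 54.6 to 88.4 in line 72. The ratio between lines depended on the scale: per library total, without regard to length, Nlrc5 was 2.54 times as high in line 66 as in line 67 and 2.06 times as high as in line 72. In summed TPM the highest line was 1.46 times the lowest. Short noncoding transcripts moved that sum: Nlrc5-209, of 346 bases, carried 64.6% of the Nlrc5 TPM of line 67 from 3.39 counts and was at 0 in the other lines. Over protein-coding transcripts alone, Nlrc5 measured 0.482, 0.191 and 0.332 TPM in lines 66, 67 and 72.

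Of the inhibitory ligands, Cd47 was abundant and Cd274 was low. Cd47 (chr16:49800533-49915010, plus strand), the signal that restrains phagocytes, measured 30.1, 33.7 and 46.3 TPM in lines 66, 67 and 72 (36.7 ± 8.50 TPM, SD, n = 3), above 83.4% of detected genes. Line 72 was the highest and 1.54 times the lowest. Cd274 (chr19:29367455-29388095, plus strand), which encodes PD-L1, measured 0.343, 0.211 and 0.297 TPM from 58.2, 32.7 and 47.8 counts, with exact Poisson 95% intervals from 44.0 to 75.0, from 22.7 to 46.3 and from 35.4 to 63.6. Per library total, Cd274 was 1.63 times as high in line 66 as in line 67, on few counts, and a difference between the lines was not tested. The TPM of Cd47 was 87.7, 160 and 156 times that of Cd274, and the log2(TPM + 1) difference was 4.85 ± 0.33 (n = 3, exact p = 0.25).

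**Figure D1:**
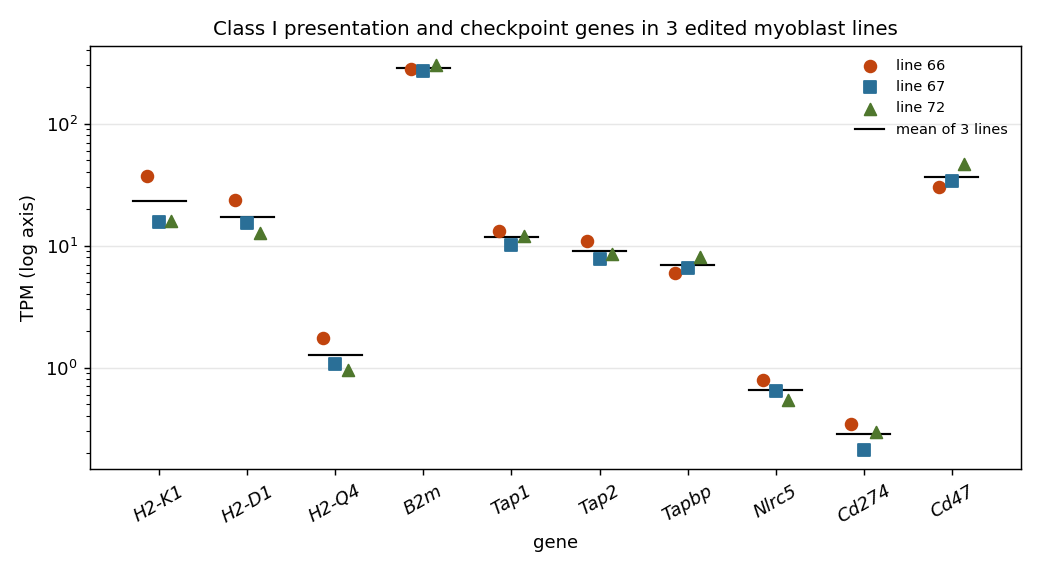
TPM of each gene (log axis) in lines 66, 67 and 72, with 1 point for each line and a bar at the mean of the 3 lines. B2m stands alone at between 268 and 302 TPM, and Nlrc5 and Cd274 lie below 1 TPM in every line.

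By mean level the order was B2m, Cd47, H2-K1, H2-D1, Tap1, Tap2, Tapbp, H2-Q4, Nlrc5 and Cd274. Of the 9 neighbouring pairs, B2m and Cd47, Tapbp and H2-Q4, H2-Q4 and Nlrc5, and Nlrc5 and Cd274 had ranges over the lines that did not overlap. The gap between Nlrc5 and Cd274 rested on noncoding Nlrc5 transcripts: over protein-coding transcripts the ranges overlapped, and in line 67 Nlrc5 (0.191 TPM) lay below Cd274 (0.211 TPM). The TPM ranges of the remaining neighbours, from Cd47 down to Tapbp, did overlap, although both genes of a pair were measured in the same lines and Tap1, for example, exceeded Tap2 within each line. Cd47 exceeded H2-K1 in 2 of 3 lines (log2 difference 0.74 ± 0.93, n = 3, exact p = 0.5), and line 66 was the exception. The other 8 neighbour differences had the same sign in 3 of 3 lines, each with an exact p of 0.25. H2-K1 exceeded H2-D1 by 0.33 ± 0.31 on the log2 scale (n = 3, exact p = 0.25). That order did not hold per library total, where the difference was -0.69, nor over protein-coding transcripts, where it was -0.43. Per library total the mean level of H2-K1 was also below those of Tap1 and Tap2. Over protein-coding transcripts Tap2 (2.43, 2.21 and 2.68 TPM) fell below Tapbp (5.83, 6.03 and 7.68 TPM) in every line.

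The lines were then compared with each other, to ask which of the genes vary among lines of 1 genotype. A gene was called apart when a pair of lines differed more than 2-fold on the log2(TPM + 1) scale, among the 12528 genes whose mean over the lines reached 1 TPM. With 1 library for each line such a call has no p-value, and a test of this kind compares libraries, not conditions. The 8 genes that passed the filter were all but Nlrc5 and Cd274. H2-K1 was the only one of the 8 called, as higher in line 66 than in line 67 (log2 difference 1.21) and in line 72 (1.17). Among all 12528 genes, 2.11% were called in either direction between lines 66 and 67 and 2.18% between lines 66 and 72, of which genes higher in line 66 made up 1.39% and 1.09% of all genes. None of the 8 was called between lines 67 and 72, where the background was 1.73%. At a 1.5-fold threshold H2-D1 was added in both comparisons with line 66 (log2 differences 0.59 and 0.84), and Cd47 was added as lower in line 66 than in line 72 (-0.60). The background at 1.5-fold was 7.91% between lines 66 and 67 and 8.53% between lines 66 and 72. Lines 67 and 72, with a background of 5.96%, had none of the 8 genes apart.

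Line 66 was the highest line for 7 of the 10 genes, namely H2-K1, H2-D1, H2-Q4, Tap1, Tap2, Nlrc5 and Cd274. B2m, Tapbp and Cd47 were highest in line 72, and line 67 was highest for none. Of all genes that passed the filter, 44.4% were highest in line 72 and 25.8% in line 67. Among the 8 genes that passed the filter the count for line 66 was 5, where 29.8% of all genes that passed were highest in that line. Over protein-coding transcripts alone the count was 3 of 8, beside 30.4% of all genes, because Tap1 and Tap2 were then highest in line 72. The genes are not independent of each other, since H2-K1, H2-D1, H2-Q4, Tap1, Tap2 and Tapbp lie within 1 stretch of chromosome 17 and share sequence or regulators.

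**Figure D2:**
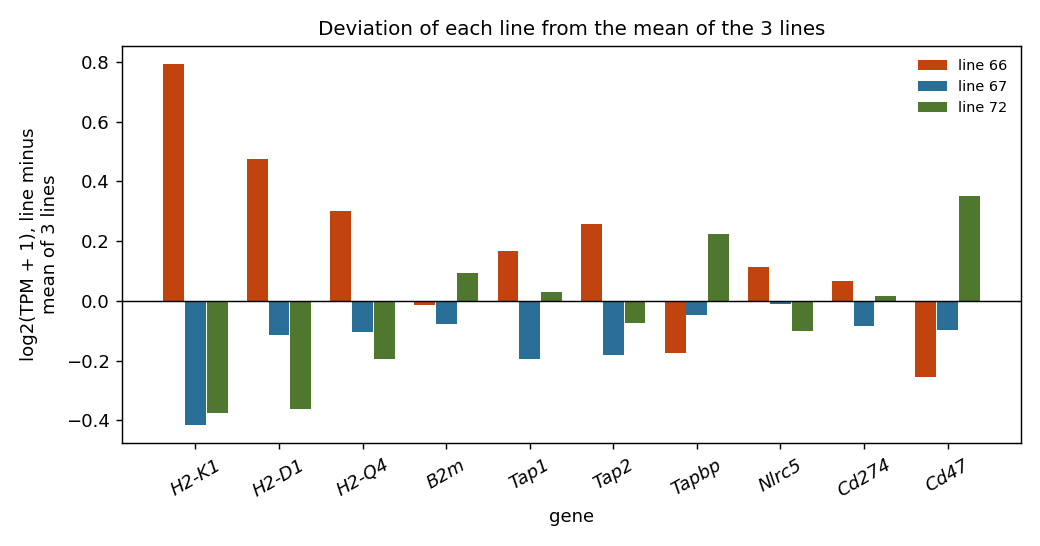
Difference of log2(TPM + 1) in each line from the mean of the 3 lines, for the 10 genes. The bars of H2-K1, H2-D1 and H2-Q4 are above 0 in line 66 and below 0 in lines 67 and 72, while Tapbp and Cd47 are below 0 in line 66 and above 0 in line 72.

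A coefficient of variation between lines that sets counting noise aside was taken from edgeR on rounded counts. It was 0.422 for H2-K1, where the trend over genes of that abundance was 0.222, and 97.4% of genes had a lower value. H2-D1 had 0.266 against a trend of 0.186. H2-Q4 had 0.329, with 94.3% of genes lower, but its trend at that low abundance was 0.315. B2m had 0.0983 against 0.126, with 10.7% of genes lower. Tap1, Tap2, Tapbp and Cd47 lay between 0.149 and 0.224, and their trend values lay between 0.137 and 0.233. The value for H2-K1 rested on line 66: without it H2-K1 fell to 0.190 and H2-D1 to 0.167.

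The position of the genes was examined beside these differences. Relative to the mean of the other lines, the median log2 difference of line 66 over 411 genes of chromosome 17 was 0.02. It was 0.08 over the 34 other genes that passed the filter between Tapbp and H2-Q4 (chr17:33915899-35385290), of which 76.5% lay above 0 in line 66, 47.1% in line 67 and 29.4% in line 72. H2-K1 differed by 1.25, H2-D1 by 0.76, H2-Q4 by 0.51, Tap2 by 0.44 and Tap1 by 0.30, whereas Tapbp, in the same stretch, differed by -0.21. Over protein-coding transcripts alone the difference was taken from the mean log2 level of the other lines, with no median subtracted. There H2-K1 differed by 1.33, H2-D1 by 0.72 and H2-Q4 by 0.42, while Tap1 differed by 0.15 and Tap2 by -0.0040. The immune cell markers had a summed level of 4.77, 3.53 and 5.30 TPM in lines 66, 67 and 72, mostly from Cd68. The endothelial markers summed to 2.13, 1.18 and 1.87 TPM. The part of either group of cells in the result was not tested.

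Transcripts of each gene were examined next, because the program used splits reads among them. All 10 genes had counts on protein-coding transcripts, but for Tap2 these were a small share. Tap2-202, an annotated retained-intron transcript of 2561 bases, measured 8.04, 5.34 and 5.82 TPM in lines 66, 67 and 72 and carried 84.7%, 84.3% and 85.5% of the Tap2 counts. The protein-coding form with the most counts, Tap2-201, measured 0.916, 0.601 and 0.570 TPM, and the protein-coding Tap2-204 measured 0.874, 1.16 and 1.45 TPM from at most 15.8 counts. Protein-coding transcripts thus made up 27.3% of Tap2 TPM as a mean of the lines, and only 3.85% of the 11714 protein-coding genes that passed the filter had a lower share. Most of Tap2-202 is also exon sequence, since 92.6% of its 31-base words occur in protein-coding Tap2 transcripts, so the division between these transcripts is an estimate. Over protein-coding transcripts alone, the log2 difference of Tap1 from Tap2 was 1.21.

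H2-K1 and Tap1 also had retained-intron transcripts at sizeable levels. H2-K1-201, the main protein-coding form, measured 11.7, 4.91 and 4.03 TPM, and the retained-intron H2-K1-215, of 457 bases, measured 11.7, 6.46 and 5.84 TPM from 177, 88.8 and 84.5 counts. Both were highest in line 66. Protein-coding H2-K1 transcripts summed to 23.04, 7.93 and 9.23 TPM, so line 66 also stood apart over these. For Tap1, protein-coding Tap1-206 measured 7.32, 5.46 and 6.37 TPM, and the retained-intron Tap1-203 measured 4.71, 3.71 and 3.63 TPM.

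Cd47 was spread over several protein-coding transcripts. The longest of those named here, Cd47-201 of 5250 bases, measured 11.9, 13.4 and 16.5 TPM in lines 66, 67 and 72 and held between 76.0% and 79.0% of the counts. Cd47-202, of 1175 bases, measured 7.87, 7.95 and 15.6 TPM, so line 72 stood well above the others. Cd47-204 was closer in the 3 lines, at 5.59, 5.18 and 6.02 TPM. B2m and Cd274 each had 1 listed transcript, and H2-D1, H2-Q4 and Tapbp had between 94.9% and 99.1% of TPM on protein-coding transcripts.

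**Figure D3:**
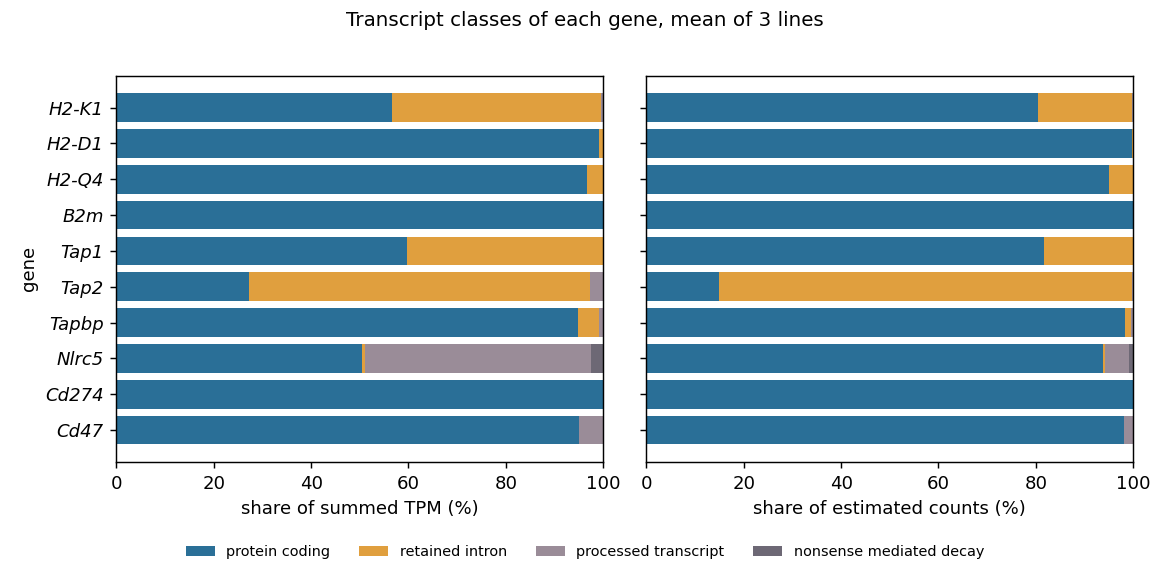
Share of summed TPM (left, %) and of estimated counts (right, %) by annotated transcript class for each gene, as the mean of 3 lines. Protein-coding transcripts hold 27.3% of Tap2 TPM and 14.9% of its counts, and 56.6% of H2-K1 TPM and 80.5% of its counts.

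Class I heavy chains are close copies of one another, which limits how well reads are assigned. Of the 31-base words of H2-K1, 77.3% occurred in no other listed gene, and 11.1% were shared with H2-D1. For H2-D1 the unique share was 73.5%. H2-Q4 had 47.0% unique words and shared 19.5% with H2-Q6, so its low level is the least certain of the 3. The corresponding shares were 100% for B2m, 99.4% for Nlrc5, 98.3% for Cd47 and 95.9% for Tap1, and between 73.1% and 85.7% for Tap2, Tapbp and Cd274. Heavy chain genes also vary among mouse strains, and the labels do not give the H-2 haplotype of the lines.

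The other genes of the pathway were read from lists, each described by its counts and by its median beside that of all detected genes, which was 0.88 on the log2(TPM + 1) scale. Among 15 further class I and class I-like heavy chain genes, 5 had at least 1 TPM in every line and 4 had no count. The highest were Cd1d1, which presents lipids, at 9.60, 4.82 and 5.84 TPM, and H2-T22 at 6.47, 6.13 and 6.88 TPM. H2-T23, which encodes Qa-1, a ligand of an inhibitory NK cell receptor, measured 2.33, 1.19 and 1.19 TPM. Cd1d1 and H2-T23 were highest in line 66, as H2-K1 was, but H2-T22 was not. The list median was 0.16 ± 0.05 (SD, n = 3).

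The chaperones that fold and load class I were at high levels. All 6 genes of this list reached 1 TPM in every line and 4 reached 10 TPM. By summed TPM calreticulin, Calr, was the highest, at 865, 958 and 1043 TPM. Canx, Pdia3 and Hspa5 had means between 455 and 589 TPM. Calr did not lead on other scales. Over protein-coding transcripts Calr measured 388, 405 and 416 TPM in lines 66, 67 and 72. There Hspa5 measured 432, 406 and 484 TPM and Canx 495, 397 and 418 TPM, while Pdia3 lay below Calr in every line. Per library total, Canx was above Calr in every line. These chaperones serve many secretory proteins. The dedicated members were lower: the peptide-trimming enzyme Erap1 measured 6.71, 8.42 and 8.78 TPM, and Tapbpl, a tapasin relative, had a mean of 2.47 ± 0.0754 TPM (SD, n = 3).

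The interferon-inducible catalytic subunits of the immunoproteasome were far below their constitutive counterparts. Psmb8 measured 1.06, 0.270 and 0.596 TPM in lines 66, 67 and 72 from 71, 14 and 24 counts, whereas Psmb5, the subunit it replaces, measured 193, 183 and 176 TPM. Psmb9 measured 1.21, 0.531 and 0.968 TPM, against 440, 319 and 327 TPM for its counterpart Psmb6. The log2(TPM + 1) differences were -6.84 ± 0.32 for Psmb8 from Psmb5 and -7.58 ± 0.17 for Psmb9 from Psmb6 (n = 3, exact p = 0.25 each). Psmb8 and Psmb9 were both highest in line 66, at low counts. Psmb10 was nearer its counterpart, at 25.7, 35.4 and 31.4 TPM against 223, 221 and 230 TPM for Psmb7 (-2.84 ± 0.23, n = 3, exact p = 0.25). Over protein-coding transcripts alone this difference was -5.08. The activator subunits Psme1 and Psme2, which open the proteasome gate, had means of 54.7 ± 6.83 and 55.8 ± 7.75 TPM (SD, n = 3). Over protein-coding transcripts Psme1 measured 53.2, 46.6 and 45.9 TPM and Psme2 21.9, 13.1 and 17.3 TPM in lines 66, 67 and 72.

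The factors with which NLRC5 works were present throughout. All 8 genes of that list reached 1 TPM in each line and 7 reached 10 TPM. Rfx5, of the X box complex, measured 16.2, 14.6 and 19.5 TPM, and Nfyb, of the Y box complex, measured 44.4, 40.4 and 38.1 TPM. Over protein-coding transcripts alone Rfx5 (5.63, 4.55 and 7.73 TPM) and Rfxap (5.37, 5.34 and 5.20 TPM) lay below 10 TPM in every line. Rfxank was the lowest, at 4.36 ± 0.496 TPM (SD, n = 3). None of the 8 was more than 2-fold apart between lines, where 4.05% of all genes were apart in any pair.

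No count was listed in any line for the 6 interferon ligands Ifng, Ifnb1, Ifna2, Ifna4, Ifnl2 and Ifnl3. The fixed limit of 3 counts is 0.0409, 0.0448 and 0.0427 counts for each 1000000 of lines 66, 67 and 72. The receptors and signalling genes were expressed, with all 13 at 1 TPM or more in every line. Jak1, a kinase of both interferon pathways, had 62.5 ± 4.36 TPM, Ifnar1 31.7 ± 2.77 TPM and Ifngr1 18.1 ± 3.02 TPM (SD, n = 3). Irf1, a transcription factor that acts on class I promoters, measured 12.7, 7.22 and 10.5 TPM and was highest in line 66.

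Interferon-stimulated genes were mostly low. Of 16, Irgm1 and Bst2 had at least 1 TPM in every line, none had 10 TPM in every line, and the list median was 0.30 ± 0.11. The GTPase gene Irgm1 measured 10.9, 4.81 and 5.19 TPM, and was the 1 gene of the 3 that passed the filter called apart at 2-fold between any lines, against 4.05% of all genes in any pair. Like H2-K1, Irgm1 was highest in line 66, as were 29.8% of all genes that passed the filter. The other genes of the 3, Bst2 and Rsad2 (0.898, 1.08 and 1.07 TPM), were highest in line 67. Bst2, which encodes tetherin, measured 8.71, 11.4 and 6.02 TPM. Isg15, Ifit1 and Mx1 had means between 0.112 and 0.327 TPM.

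MHC class II genes were low. Of 7, only H2-DMa, a class II loading factor, reached 1 TPM in every line, at 2.69 ± 0.147 TPM (SD, n = 3). Ciita, the class II transactivator, had 3.08, 2 and 5.04 counts, and the invariant chain gene Cd74 had 4, 5 and 4 counts.

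Among 16 T cell costimulators and coinhibitors, 8 had at least 1 TPM in every line and 4 had at least 10 TPM. Cd276 (B7-H3) was the highest, at 61.4, 70.8 and 81.0 TPM. Pvr and Nectin2, ligands of the activating receptor DNAM-1 and the inhibitory receptor TIGIT, had means of 49.7 ± 1.16 and 13.2 ± 1.59 TPM (SD, n = 3). Cd200, which restrains myeloid cells, measured 34.3, 21.7 and 40.0 TPM. Cd80, a ligand of CD28 and CTLA-4, measured 9.39, 12.3 and 13.6 TPM, while its relative Cd86 and the PD-L2 gene Pdcd1lg2 had no count in any line. Cmtm6 and Cmtm4, whose products stabilise PD-L1 at the surface, had means of 15.9 ± 2.25 and 8.67 ± 0.532 TPM (SD, n = 3), far above Cd274 itself.

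For CD47, its partners and other phagocytosis signals were mostly well expressed. Of 7 genes, 6 had at least 1 TPM in every line. Thbs1, a secreted ligand of CD47, was the highest, at 417, 519 and 336 TPM. Qpctl, an enzyme that modifies CD47 so that SIRPα binds it, measured 14.8, 14.5 and 13.4 TPM, and Sirpa measured 6.83, 5.59 and 7.74 TPM. Cd24a, another phagocytosis signal, measured 149, 126 and 68.8 TPM and was the 1 of the 6 genes tested that was called apart at 2-fold, against 4.05% of all genes in any pair. It was lowest in line 72, where Cd47 was highest.

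**Figure D4:**
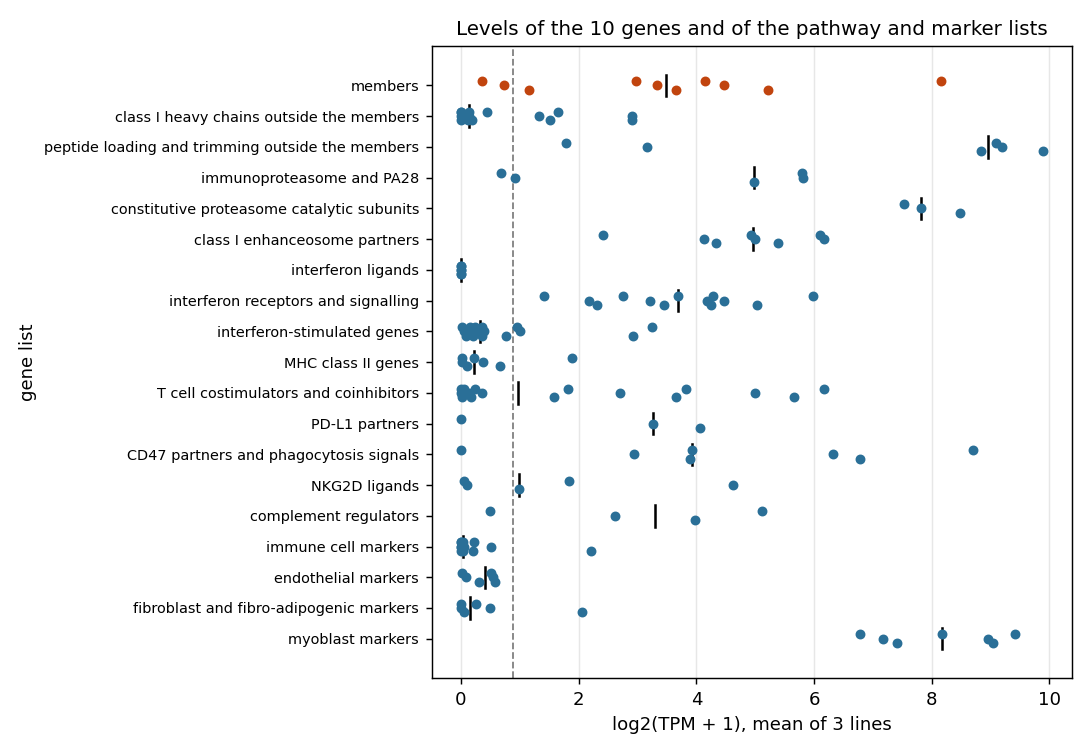
Mean log2(TPM + 1) over 3 lines of each gene, with the 10 genes (members, orange) in the top row and 18 pathway and marker lists below (blue); vertical bars are medians over the genes of a list and the dashed line is the median of all detected genes (0.88). The interferon ligands sit at 0, and loading chaperones and myoblast markers sit highest.

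Genes with a like pattern over the lines were sought among 8423 genes whose mean reached 10 TPM. The reference was the mean profile of the 5 genes above that level (B2m, Cd47, H2-K1, H2-D1 and Tap1), in log2(TPM + 1) centred on each gene's mean, with values of 0.23, -0.18 and -0.05 in lines 66, 67 and 72. By Euclidean distance over the 3 lines the nearest were Smg6 (0.00696), Nt5dc1 (0.00696) and Erlec1 (0.0077). This mean does not stand for each of the 5 genes, since Cd47 was lowest in line 66 and highest in line 72 and B2m was also highest in line 72. With 3 lines many genes lie close, and 85 were within a distance of 0.05.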

How the data were processed

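RNA-seq libraries of 3 edited Dmdmdx; Pax7-nGFP myoblast lines were used, with the line as replicate. Whether the lines came from separate animals is not given in the labels, so p-values refer to these libraries only. With 3 lines the sign-flip p is 0.25 whenever a difference has the same sign in every line, whatever its spread. Per the labels, libraries were made from poly-A RNA with a stranded kit. The submitters' processing notes name bcl2fastq 2.20, fastp 0.20, kallisto 0.46.1 and GRCm39; the annotation release and strand setting are not given in the sources used here. The authors deposited, for each of 121798 transcripts, an estimated count, for which reads that match more than 1 transcript are shared out, and a TPM, scaled by effective length to 1000000 per library. Such sharing makes levels of near-identical genes and of overlapping transcripts estimates.

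Genes were assigned to transcripts through their identifiers in GENCODE M21, release 21 of the mouse set (GRCm38). Of them 1112 had no match (between 0.493% and 0.535% of counts) and were left out, and 509 had another length there, among them H2-D1-201. TPM and counts were each summed per gene, and levels were taken as log2(TPM + 1). Differences between genes were tested with an exact two-sided sign-flip test over 3 lines, and the spread between lines with an intercept-only fit of edgeR to rounded counts. Fold differences on the log2(TPM + 1) scale understate those of low genes. Depth was between 66972426 and 73274315 counts; intervals and limits cover counting error only, since reads carried no molecular identifiers. The 10 genes, the 18 lists and the tests were chosen with earlier results of these data known. The genes named are the 10, genes of the lists and the 3 most alike in pattern. Alternatives were CPM, a pseudocount of 0.1, protein-coding transcripts only, filters, scalings and leaving out each line. Scripts were tested on simulated counts. In R 4.3.3, edgeR 4.0.16 and DESeq2 1.42.0 (size factors only) were used. In Python 3.11.15, scipy 1.17.1 and pandas 2.3.3 were used, and figures were drawn with matplotlib 3.10.9. Promoter windows were RefSeq's. Some genes of the lists are not reported by name here.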

Additional observations from a re-analysis of the deposited data

How the results depend on the processing

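The order of the 10 genes kept all 10 places without any 1 line and 6 of 10 with CPM, which is not per length. The log2 difference of H2-K1 from H2-D1 (0.33; between 0.17 and 0.48 without 1 line) became -0.69 with CPM and -0.43 over protein-coding transcripts alone. H2-K1 was the 1 gene called apart between lines; this count was 3 at 1.5-fold, and 0 or 1 with 1 line left out, being 0 without line 66. Nlrc5, which the filter left out, was 2.54 times as high in line 66 as in line 67 per library total, a scale on which this count was not run without the filter. It stayed at 1 with a filter of 10 TPM, with no filter, with a pseudocount of 0.1, with TMM or DESeq2 scaling, and under 2 alternatives chosen after seeing the data, protein-coding transcripts only and no filter with a pseudocount of 0.1. The count of genes highest in line 66, 5 of the 8 that passed the filter, was 3 over protein-coding transcripts and 5 with CPM, both chosen after seeing the data. The common coefficient of variation of edgeR was 0.198, and between 0.170 and 0.225 otherwise. The lists with a median above that of all detected genes numbered 11 or 10. The other gene pairs kept their direction in each alternative run. Of 198 further values of single genes and lists, 39 moved, 20 of them with CPM and 13 with the other pseudocount. A level or list median was said to move when it shifted by more than its SD over the lines. The coefficients of variation of single genes have no such SD and were judged otherwise. Among them H2-K1 (0.422 to 0.190) and H2-D1 (0.266 to 0.167) moved without line 66. Low counts limited the precision of Nlrc5 and Cd274, and 3 lines cannot reach a p below 0.25. No paired analysis was possible because there is 1 group, with 1 library of each line.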

Other observations

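Ligands of NKG2D, an activating receptor of NK cells, were also expressed. Of 5 genes, Ulbp1 and Raet1e had at least 1 TPM in every line. Ulbp1 measured 17.8, 33.5 and 22.1 TPM in lines 66, 67 and 72 and was highest in line 67. Raet1e measured 4.54, 1.09 and 2.96 TPM from 251, 48.3 and 135 counts, was highest in line 66, and was over 2-fold higher there than in line 67 on the log2(TPM + 1) scale, where 2.11% of all genes were apart. In TPM without the added 1, line 67 was 0.369 times line 72. H60b and H60c had at most 6 counts in any line.

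Among complement regulators, which protect cells from complement, 3 of 4 genes had at least 1 TPM in every line, and all 3 were highest in line 66, where 29.8% of all genes that reached a mean of 1 TPM were highest. Cr1l, which encodes the rodent regulator Crry, measured 35, 33.3 and 33.1 TPM, so the lines differed little. Cd55 measured 19.3, 10.9 and 15.2 TPM, and Cd59a measured 6.06, 4.47 and 4.95 TPM. Cd46 lay at 0.407 ± 0.121 TPM (SD, n = 3).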
